A study of Mus musculus with 4 samples.

Results

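Perivascular macrophages (PVMs) of brown adipose tissue (BAT) were examined as 2969 of the 28887 quality-passing cells of 4 single-cell RNA sequencing libraries (10.3%). Tissue macrophages of this kind lie along blood vessels, where they take up proteins, hormones and cell debris through scavenger and lectin receptors, and they are known for LYVE1, a hyaluronan receptor, FOLR2, a folate receptor, and CD163, a receptor for hemoglobin bound to haptoglobin. In adipose tissue they are set apart from lipid-associated macrophages (LAMs), which gather around dying adipocytes and carry genes of lipid uptake and lysosomal breakdown such as Trem2, a lipid-sensing receptor, and Gpnmb. A dissociated cell keeps no record of its place in the tissue, so the name rests on genes alone.

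PVMs were chosen by their own UMIs (molecules counted once each), so what the rule used is description and not a finding. Barcodes with 250 genes or fewer, 6000 genes or more, 500 UMIs or fewer, 30000 UMIs or more or a mitochondrial share of 15% or more were left out. Per 10000 UMIs of a cell, the complement genes C1qa, C1qb and C1qc had to sum to at least 5, the stromal genes Col1a1, Col1a2, Col3a1, Dcn and Gsn to under 30, and the endothelial genes Cdh5, Cldn5 and Gpihbp1 to under 20. Fewer than 3 UMIs of 8 cell cycle genes were allowed. The 6438 cells that met these limits are called C1q macrophages here. A PVM was a C1q macrophage in which Lyve1, Cd163, Folr2, Cbr2 and F13a1 summed to at least 10 per 10000 UMIs and to more than Trem2, Gpnmb, Spp1, Cd9 and Mmp12. The 2331 LAMs had at least 10 per 10000 UMIs of the latter genes and no more of the former than of these.

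The stromal vascular fraction of BAT was sequenced from WT mice aged 10 weeks, from mice of genotype DB_DB aged 8 weeks (8-week db/db) and 16 weeks (16-week db/db), and from mice on a high-fat diet (HFD), all labelled strain C57BL6/J; the plots write db/db 8w and db/db 16w for the db/db libraries. The db/db mice carry a mutated leptin receptor in every cell, not in macrophages alone, and become obese and diabetic. For HFD an age of 10 weeks was labelled, yet by the study's methods the diet started at that age and lasted 10 weeks, so the age of these mice is uncertain. Each library pooled 3 mice by those methods and was the only one of its group, so no replicates exist, nothing was tested, and all 95% intervals cover counting error only. Tissue of all groups was taken from fasted mice by the same methods. All ratios to WT rest on the same WT library. The comparisons ask how PVMs of obese and diabetic mice differ from those of lean mice.

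The libraries held 8318 barcodes in WT, 18306 in 8-week db/db, 6517 in 16-week db/db and 17440 in HFD, of which the limits on genes, UMIs and mitochondrial share kept 71.5%, 63.6%, 89.5% and 31.3%. Any pair of libraries shared 16 to 97 barcodes, none of them of a PVM in both. PVMs had a median of 5644.5 UMIs in WT, 4308 in 8-week db/db, 2798 in 16-week db/db and 3931 in HFD, with median mitochondrial shares of 6.53%, 5.33%, 0.984% and 12.0%. Predicted doublets, which were kept, made up 0.751% to 4.90% of PVMs per library. The study's methods describe male mice, but PVMs of 16-week db/db carried 323 CPM (UMIs per 1000000 UMIs) of Xist, the RNA of the inactive X chromosome, against at most 0.139 CPM in the other libraries, and 4.76 CPM of the Y-linked Ddx3y against 120.0 to 126. Sex therefore cannot be told apart from age and genotype in any value of 16-week db/db.

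At the limits of the rule, PVMs made up a smaller share of the cells in each library of obese mice than in WT. The order of WT and 8-week db/db changed with other settings, given below. They were 932 of 5944 quality-passing cells in WT (15.7%, Clopper-Pearson 95% interval 14.8 to 16.6), 1491 of 11648 in 8-week db/db (12.8%, 12.2 to 13.4), 403 of 5833 in 16-week db/db (6.91%, 6.27 to 7.59) and 143 of 5462 in HFD (2.62%, 2.21 to 3.08). C1q macrophages as a whole went the other way, from 17.4% of quality-passing cells in WT to 20.5%, 26.4% and 27.0% in 8-week db/db, 16-week db/db and HFD. Among C1q macrophages PVMs accordingly were 89.9% in WT (87.9 to 91.6), 62.4% in 8-week db/db (60.4 to 64.3), 26.2% in 16-week db/db (24.0 to 28.5) and 9.71% in HFD (8.24 to 11.3), while LAMs were 1.25%, 21.4%, 58.8% and 61.3%. No pair of libraries had overlapping intervals for either PVM share.

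**Figure D1:**
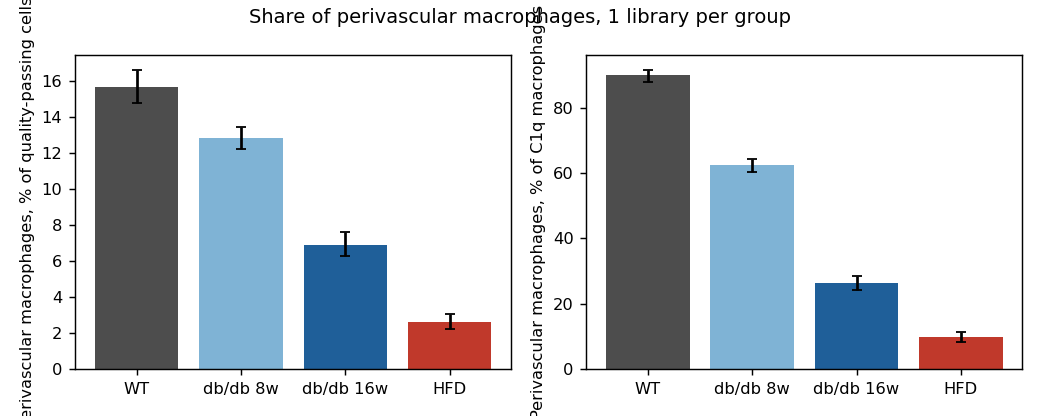
PVMs as a share of quality-passing cells and of C1q macrophages in each library, in percent, with Clopper-Pearson 95% intervals that cover counting error only. The share of C1q macrophages lies between 89.9% in WT and 9.71% in HFD, and that of quality-passing cells between 15.7% and 2.62%.

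The share of quality-passing cells hung on the limit for stromal UMIs. Cells with at least 5 C1q and 10 perivascular UMIs per 10000 numbered 1221 in WT, 2709 in 8-week db/db, 604 in 16-week db/db and 256 in HFD. Of these, 249, 1034, 15 and 3 were at or over the stromal limit of 30. Of the PVMs, 73.9% in WT, 45.5% in 8-week db/db, 4.71% in 16-week db/db and 27.3% in HFD had at least 10 stromal UMIs per 10000. Summed over PVMs these stromal genes reached 1277 CPM in WT, 911 in 8-week db/db, 204 in 16-week db/db and 714 in HFD, and in T cells of the same libraries, which do not make collagen and were gated under the same stromal limit, they reached 1021, 796, 137 and 689.9 CPM. With stromal and endothelial limits of 10 in place of 30 and 20, PVMs were 4.09% of quality-passing cells in WT, 6.95% in 8-week db/db, 6.48% in 16-week db/db and 1.78% in HFD, so that WT was then below both db/db libraries. When cells were thinned to 1000 UMIs before the rule, WT at 14.3% was below 8-week db/db at 15.1%. The share of C1q macrophages kept its order with limits of 10, at 84.7%, 57.3%, 26.4% and 8.51%. Barcodes that only the mitochondrial limit removed and that met the rest of the rule numbered 221 in WT, 246 in 8-week db/db, 3 in 16-week db/db and 406 in HFD, the last against 143 kept. What part free RNA, cell damage and tissue digestion had in the shares was not tested.

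**Figure D2:**
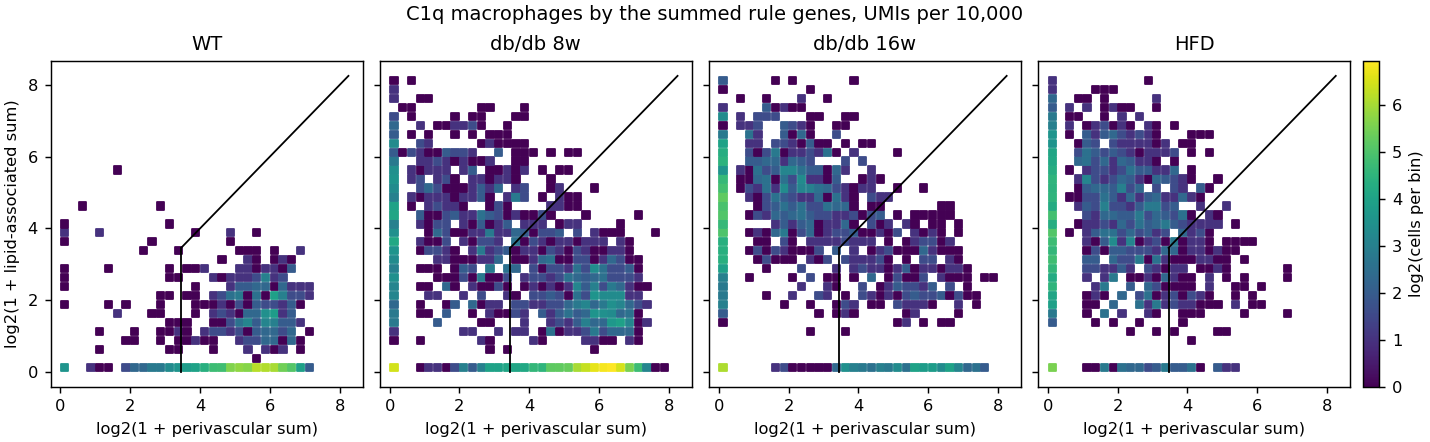
C1q macrophages of each library by the log2 of 1 plus their summed perivascular genes (horizontal) and 1 plus their summed lipid-associated genes (vertical), both per 10000 UMIs; colour gives the log2 number of cells per bin, and PVMs lie right of and below the black line. The median perivascular sum of PVMs is 49.8 in WT and 19.99 in HFD, where most cells lie outside the line.

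The genes of the rule were found together in most PVMs of WT and 8-week db/db, and less completely in 16-week db/db and HFD. Lyve1, at chr7:110850607-110863239 of GRCm38, stood at 1119 CPM in WT, 1227 in 8-week db/db, 902 in 16-week db/db and 159 in HFD. Folr2, at chr7:101839988-101857194, stood at 1255 CPM in WT, 982 in 8-week db/db, 624 in 16-week db/db and 656 in HFD. Cd163, at chr6:124304656-124330527, stood at 728 CPM in WT, 987 in 8-week db/db, 718 in 16-week db/db and 424 in HFD. For these genes 8-week db/db lay within 2-fold of WT, and HFD was the lowest library for Lyve1 and Cd163. Cbr2, a carbonyl reductase at chr11:120729489-120732114, stood at 515 CPM in WT, 509 in 8-week db/db, 812 in 16-week db/db and 167 in HFD, and F13a1, the A subunit of coagulation factor XIII at chr13:36867178-37050244, at 1879.7 CPM in WT, 2378 in 8-week db/db, 2561 in 16-week db/db and 1021 in HFD. At least 1 Lyve1 UMI was found in 82.2% of PVMs in WT, 82.1% in 8-week db/db, 54.3% in 16-week db/db and 14.0% in HFD. After thinning each cell to 1000 UMIs, which left 929, 1442, 350 and 143 PVMs, these shares were 53.7%, 58.9%, 40.6% and 6.29%. Thinned T cells had none, 0 of 41 in WT, which allows up to 8.60% by the exact interval, and stromal cells had at most 0.826%. At least 3 of the 5 markers were detected in 93.2%, 89.4%, 69.2% and 55.2% of PVMs in the same order, and all 5 in 45.3%, 39.7%, 13.9% and 4.2%. The HFD cells are therefore PVMs by the sum in the rule, which in them rests mostly on F13a1 and Folr2, and few of them are Lyve1+.

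The threshold was placed on a slope and not in a gap. The 204 PVMs with a perivascular sum of 10 to 15 per 10000 UMIs had 989 CPM of Mrc1, 213 of Stab1 and 2034 of Pf4, and the 230 C1q macrophages with a sum of 5 to 10 had 739, 117 and 1375. The antigen-presentation gene H2-Aa stood at 4981 CPM inside and 5267 outside, and Lpl, lipoprotein lipase, at 1334 and 1109. Members with at least 10 per 10000 UMIs of the lipid-associated genes of the rule, kept because their perivascular sum was higher still, were 0.429% in WT, 4.43% in 8-week db/db, 15.6% in 16-week db/db and 22.4% in HFD.

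Outside the rule, PVMs carried a second tier of resident macrophage genes that LAMs of the same library had at lower levels. As the rule sets PVMs against LAMs, this contrast is described and supports nothing. Of 7281 genes compared, 1.7% were at least 2-fold higher in PVMs than in LAMs in all 4 libraries, and so were 18 of 28 resident macrophage genes, on the scale of log2(CPM + 10). The 15 genes with the highest smallest ratio over the 4 libraries included lectins and scavenging genes (Cd209f, Fcna, Mgl2), the complement gene C4b, the chemokine Ccl8, the apoptotic cell bridging ligand Gas6, the leukotriene synthase Ltc4s, the endothelin receptor Ednrb and the transcription factor Maf. In PVMs Ednrb stood at 494 CPM in WT, 503 in 8-week db/db, 317 in 16-week db/db and 117 in HFD, or 2.61 to 4.55 above LAMs on the log2 scale. Maf stood at 1328 CPM in WT, 1087 in 8-week db/db, 964 in 16-week db/db and 603 in HFD, or 2.32 to 3.16 above LAMs. Others were Fxyd2, a regulator of the sodium pump, Lifr, a cytokine receptor, Rnase4, a secreted ribonuclease, Chp2 and Wfdc17. Rnase4 was higher in stromal cells than in PVMs of WT, 8-week db/db and HFD, at 1209, 981 and 867 CPM against 507, 599 and 98.4. C4b was higher in stromal cells of WT and HFD, at 487 and 339 CPM against 224 and 132, and Ednrb in their endothelial cells, at 706 and 242 CPM. The endothelial value of WT rests on 7 cells and is uncertain. WT held 13 LAMs only, and without WT 146 of 6801 genes (2.15%) were past 2-fold in the other 3 libraries against 124 in all 4.

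**Figure D3:**
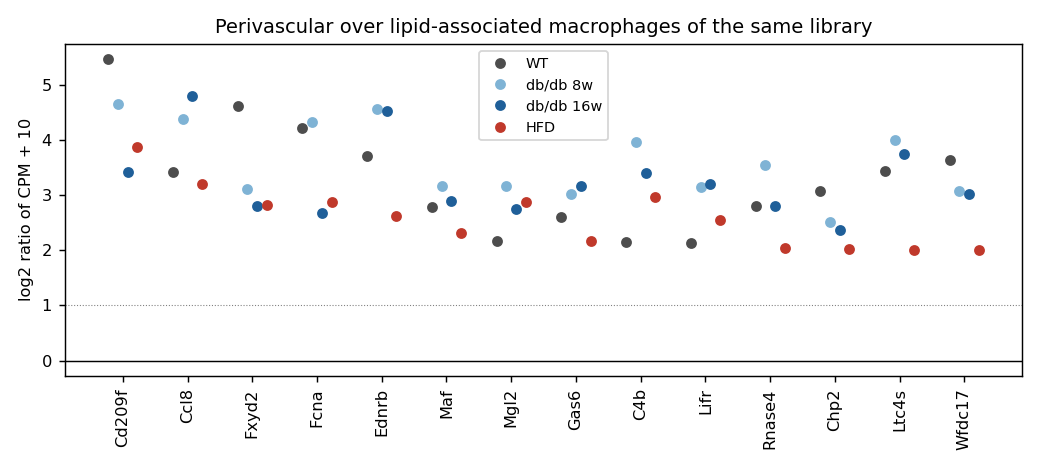
Log2 ratio of PVMs to LAMs, each as CPM + 10, for 14 of the 15 genes with the highest smallest ratio over the 4 libraries (points, 1 per library). The rule chose PVMs against LAMs, so the plot describes the classes; all points lie above 0, those of Maf from 2.32 to 3.16.

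By the number of genes past 2-fold, PVMs differed least from WT in 8-week db/db. That library also had the most PVM UMIs, 7201224 against 1261767 in 16-week db/db and 630035 in HFD, where counting error is largest. With 10 CPM added and genes of at least 20 CPM in either library, 1.33% of 5552 genes were at least 2-fold higher and 1.35% at least 2-fold lower in 8-week db/db, 9.98% and 8.75% of 5989 in 16-week db/db, and 7.06% and 5.31% of 6103 in HFD. As counts these were 74 and 75, 598 and 524, and 431 and 324 genes. The median log2 ratio over all genes was 0.08, 0.17 and 0.17, and ratios centred on it gave 57 and 91, 381 and 681, and 278 and 417 genes. At least 2-fold higher in all 3 libraries of obese mice were 27 of 6610 genes (0.408%), and 46 (0.696%) were lower in all 3, or 65 and 194 when 8-week db/db was left out. The lists below are read against these percentages, which count every gene that passed the filter.

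PVM identity genes outside the rule mostly lay within 2-fold of WT in 8-week db/db, and many stood lower in HFD. Of 28 compared genes, 2 were at least 2-fold lower and 0 higher in 8-week db/db (1.35% and 1.33% over all genes), 7 lower and 3 higher in 16-week db/db (8.75% and 9.98%), and 15 lower and 1 higher in HFD (5.31% and 7.06%). List medians are given in the order 8-week db/db, 16-week db/db and HFD, and the median log2 ratio of the identity genes was -0.29, -0.70 and -1.11. The summed level was 25697 CPM in WT, 24698 in 8-week db/db, 28589 in 16-week db/db and 16683 in HFD, so that in 16-week db/db the sum was above WT and the median gene below it. Other C1q macrophages had 6668, 7160, 7413 and 8410 CPM in the same order. Across thinned PVMs the identity sum had Spearman correlations of 0.53, 0.55, 0.48 and 0.35 with the perivascular sum of the rule. The median perivascular sum was 49.8 in WT and 19.99 in HFD, so the lower identity genes of HFD are not independent of the rule. Mrc1, the mannose receptor CD206, stood at 1089 CPM in WT, 1480.3 in 8-week db/db, 1484 in 16-week db/db and 1590.4 in HFD. Pf4, a CXC chemokine, stood at 2460.1 CPM in WT, 4117 in 8-week db/db, 7759.8 in 16-week db/db and 1646 in HFD. Stab1, a scavenger receptor, stood at 383 CPM in WT, 281 in 8-week db/db, 612 in 16-week db/db and 332 in HFD. None of these 3 genes was 2-fold below WT in any library, and Pf4 alone was at least 2-fold above it, in 16-week db/db. Vsig4, a complement receptor of resident macrophages, was also higher there and stood at 27.8 CPM in WT, 54.4 in 8-week db/db, 172 in 16-week db/db and 39.7 in HFD.

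Several lectin genes, whose proteins bind sugars of microbes and serum proteins, stood lower. Cd209f stood at 746 CPM in WT, 282 in 8-week db/db, 96.7 in 16-week db/db and 144 in HFD, with log2 ratios to WT of -1.37, -2.82 and -2.29. Cd209g stood at 241 CPM in WT, 85.4 in 8-week db/db, 34.9 in 16-week db/db and 30.2 in HFD, with log2 ratios of -1.39, -2.48 and -2.64. These were the only 2 identity genes lower by 2-fold in all 3 libraries. Reads of the Cd209 family may be split or lost between its near-identical genes, so single members are uncertain. Fcna, ficolin A, stood at 1358 CPM in WT, 824 in 8-week db/db, 327 in 16-week db/db and 132 in HFD. Clec10a, a galactose lectin, stood at 1625 CPM in WT, 1268 in 8-week db/db, 852 in 16-week db/db and 338 in HFD. For both genes every library of obese mice was below WT, in the order 8-week db/db, 16-week db/db and HFD. Timd4, a phosphatidylserine receptor of long-lived resident macrophages, was low throughout and stood at 60.2 CPM in WT, 32.6 in 8-week db/db, 6.34 in 16-week db/db and 6.35 in HFD. Over the lectin receptor list 2 of 17 genes were lower in 8-week db/db, 5 in 16-week db/db and 8 in HFD, and 0, 1 and 3 were higher, with medians of -0.17, -0.52 and -0.56. The 3 higher in HFD included Mgl2, with 286 CPM against 66.5 in WT, and Clec12a, with 316 against 54.3.

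**Figure D4:**
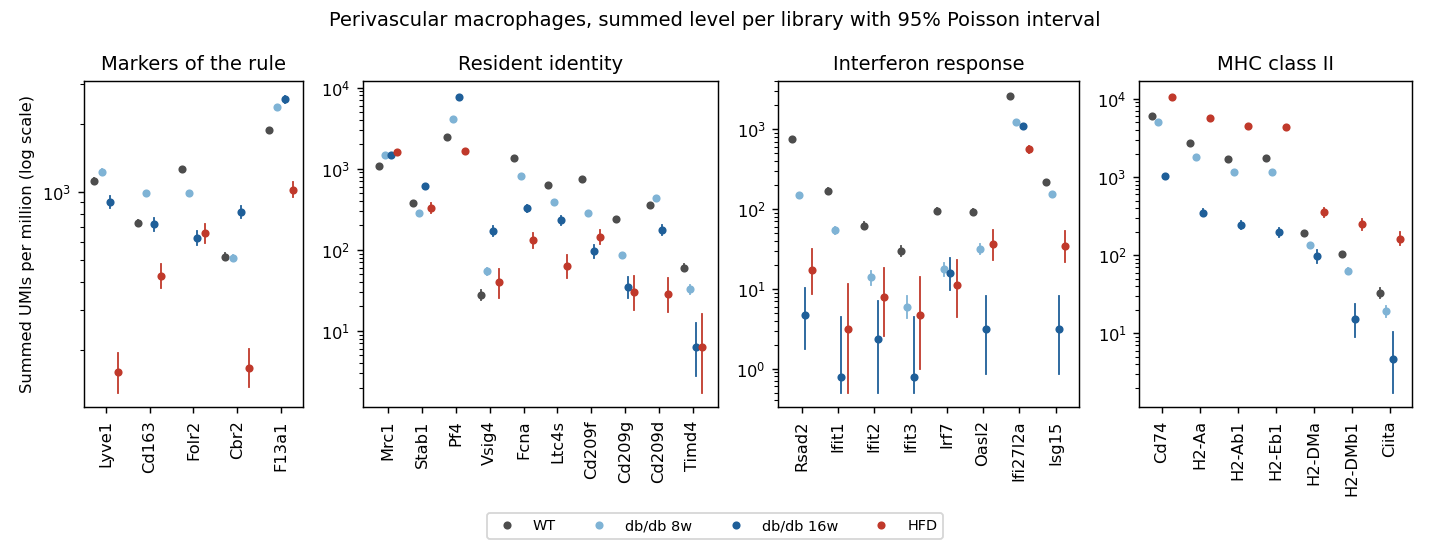
Summed level of named genes in PVMs of each library, in CPM on a log scale, with exact Poisson 95% intervals drawn down to 0.5 at the lowest. Lyve1 lies at 159 in HFD against 1119 in WT, Rsad2 at 748 in WT against 148 in 8-week db/db, and H2-Aa is lowest in 16-week db/db and highest in HFD.

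Interferon-stimulated genes stood lower in PVMs of all 3 libraries of obese mice. These genes are switched on by interferons through a DNA element in their promoters, and they encode antiviral proteins. Of 17 compared genes, 9 were at least 2-fold lower in 8-week db/db, 16 in 16-week db/db and 13 in HFD, and 0 were higher in any. The median log2 ratio was -1.02, -2.03 and -1.45. The 7 genes lower in all 3 libraries were Ifit1, Ifit2, Ifit3, Irf7, Oasl2, Ifi27l2a and Rsad2. Rsad2, which encodes the antiviral enzyme viperin, stood at 748 CPM in WT, 148 in 8-week db/db, 4.76 in 16-week db/db and 17.5 in HFD. Ifit1, whose protein binds foreign RNA, stood at 171 CPM in WT, 54.3 in 8-week db/db, 0.793 in 16-week db/db and 3.17 in HFD, with 1 UMI in all PVMs of 16-week db/db and 2 UMIs in HFD. Irf7, a transcription factor of the interferon response, stood at 95.7 CPM in WT, 17.5 in 8-week db/db, 15.9 in 16-week db/db and 11.1 in HFD. In each of these genes WT alone was high, and 8-week db/db lay between WT and the other libraries for Rsad2 and Ifit1.

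The windows of 250 bases before the starts of Ifit1, Ifit3 and Rsad2 are shown, from RefSeq on GRCm38.p6, because they hold the core letters of the interferon-stimulated response element (GAAA, any 2 bases and GAAA again, on either strand). Capitals mark each match. All matches were on the strand opposite to the gene and so read as its reverse complement. Ifit1 lies on the plus strand and its window at chr19:34640639-34640888. That of Ifit3 is chr19:34583279-34583528 on the plus strand, and that of Rsad2 is chr12:26456453-26456702 on the minus strand, all printed from 5′ to 3′ of the gene.
Ifit1: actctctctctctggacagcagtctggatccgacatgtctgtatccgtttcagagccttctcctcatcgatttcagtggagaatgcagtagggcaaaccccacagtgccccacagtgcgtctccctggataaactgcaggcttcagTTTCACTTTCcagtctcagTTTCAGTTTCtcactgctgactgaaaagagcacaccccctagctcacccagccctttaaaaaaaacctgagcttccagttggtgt
Ifit3: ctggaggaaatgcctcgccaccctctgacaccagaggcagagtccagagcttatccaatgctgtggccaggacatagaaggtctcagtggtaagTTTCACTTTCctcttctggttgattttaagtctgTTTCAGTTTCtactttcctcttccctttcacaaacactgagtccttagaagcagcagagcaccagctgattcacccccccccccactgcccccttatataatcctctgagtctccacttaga
Rsad2: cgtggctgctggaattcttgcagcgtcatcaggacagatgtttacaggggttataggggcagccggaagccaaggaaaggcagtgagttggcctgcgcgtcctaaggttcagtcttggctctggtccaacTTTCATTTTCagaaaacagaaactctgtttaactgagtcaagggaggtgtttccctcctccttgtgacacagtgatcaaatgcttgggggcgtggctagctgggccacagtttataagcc
Matches began 104 and 85 bases before the start in Ifit1, 156 and 122 in Ifit3, and 120 in Rsad2. The motif was found in 8 of the 14 interferon list genes that had a window and in 3 of 6 with one among those lower in all 3 libraries. Of all 27025 genes with a window 3.46% held it, and 1 of 22 identity genes did. A match is a run of letters and says nothing of any factor in these cells.

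Interferon genes were also lower than in WT in other macrophages, stromal cells and T cells of the libraries of obese mice. Summed over the list, PVMs had 7105 CPM in WT, 3876 in 8-week db/db, 2089 in 16-week db/db and 1835 in HFD. Other C1q macrophages, neither PVMs nor LAMs, had 7579, 2461, 901 and 1682 CPM in the same order, or log2 ratios to WT of -1.62, -3.07 and -2.17 against -0.87, -1.77 and -1.95 in PVMs. Stromal cells had 3343, 1945, 1764 and 2061 CPM, and T cells 932, 579, 397 and 775 CPM. Endothelial cells had 2245, 2037, 2529.7 and 2731 CPM. WT held 7 endothelial cells with 15588 UMIs in all, too few for a comparison with WT. Whether the difference belongs to this WT library or to lean mice cannot be told apart, and whether it differs in size between cell types was not tested.

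MHC class II genes, which present peptides to CD4+ T cells, split the libraries of obese mice. Summed they stood at 12671 CPM in WT, 9376 in 8-week db/db, 1934 in 16-week db/db and 25879.5 in HFD, with log2 ratios to WT of -0.43, -2.71 and 1.03. Of 8 genes, 0 passed 2-fold in 8-week db/db, 7 were lower in 16-week db/db, and 5 were higher and 1, H2-DMb2, lower in HFD, and the medians were -0.56, -2.37 and 1.13. H2-Aa, the alpha chain of I-A, stood at 2691 CPM in WT, 1805 in 8-week db/db, 351 in 16-week db/db and 5628 in HFD. Cd74, the invariant chain that guards the peptide groove, stood at 6124 CPM in WT, 4991 in 8-week db/db, 1023 in 16-week db/db and 10663 in HFD. Ciita, the transactivator of these genes, stood at 33.1 CPM in WT, 19.2 in 8-week db/db, 4.76 in 16-week db/db and 163 in HFD. The libraries had the same order for each of these, with 16-week db/db at the bottom and HFD on top. For HFD the ratio was under 2-fold in several alternatives, the lowest 0.46, when cells were not compared with the lipid-associated genes, and 0.65 with stromal and endothelial limits of 10. Other C1q macrophages read 29271 CPM of the list in WT, 22123 in 8-week db/db, 8399 in 16-week db/db and 29785 in HFD, and LAMs 25201, 9834, 1940 and 14640.5. HFD was thus near WT in other C1q macrophages and below it in LAMs, of which WT held 13. T cells, which in mice make little MHC class II, read 183, 2145, 1285 and 5675 CPM of the list, so part of the HFD level was seen in a cell type that should lack it. The part of free RNA was not tested.

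Within a library MHC class II set PVMs apart from each other. In WT the quartiles of the summed MHC class II UMIs per 10000 were 14.8, 51.4 and 170.1. The medians were 26.4 in 8-week db/db and 271 in HFD, and in 16-week db/db 54.8% of PVMs had no such UMI. PVMs with a Lyve1 UMI at 1000 UMIs had less of it than those without. The rule used Lyve1, so this split describes the PVMs and supports nothing. As the shares with a Lyve1 UMI above show, part of the PVMs without one had lost it in thinning. In WT H2-Aa stood at 1323 CPM in 499 PVMs with a Lyve1 UMI and 3793 in 430 without one. In 8-week db/db the levels were 1181 in 850 and 2359.8 in 592, and in 16-week db/db 317 in 142 and 553 in 208. HFD had 9 PVMs with a Lyve1 UMI, too few for a level. Il1b, an inflammatory cytokine, stood at 269 and 1460.5 CPM in PVMs with and without a Lyve1 UMI in WT, 1225 and 1998 in 8-week db/db and 77.5 and 86.5 in 16-week db/db, where the 2 intervals overlapped. Cd209f was on the other side, at 952 and 439.5, 351 and 181, and 190.1 and 9.62 CPM in the same order. Timd4 stood at 78.2 and 25.6 in WT and 52.9 and 11.8 in 8-week db/db, and had 2 UMIs in all in 16-week db/db. Across thinned PVMs, the Spearman correlation of the MHC class II sum with the resident identity sum was -0.42 in WT, -0.52 in 8-week db/db, -0.29 in 16-week db/db and -0.21 in HFD. Cells of a library share its depth and free RNA, and both sums are shares of the same total.

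Cytokine and chemokine genes were high in WT and 8-week db/db and low in 16-week db/db and HFD. Of 20 inflammatory genes 17 were at least 2-fold lower in 16-week db/db and 14 in HFD, and 2 were higher and 0 lower in 8-week db/db, with medians of 0.17, -3.09 and -1.72. The summed list had log2 ratios to WT of 0.44, -2.90 and -1.51 in PVMs and 0.11, -3.92 and -2.44 in other C1q macrophages. LAMs read 27125 CPM in WT, from 13 cells, 35134 in 8-week db/db, 1726 in 16-week db/db and 7034 in HFD. Il1b stood at 1146 CPM in WT, 1756 in 8-week db/db, 101 in 16-week db/db and 124 in HFD. Cxcl2, a neutrophil attractant, stood at 6695 CPM in WT, 12520 in 8-week db/db, 735 in 16-week db/db and 3619 in HFD. Nfkbia, the NF-κB inhibitor that NF-κB itself induces, stood at 3218 CPM in WT, 3195 in 8-week db/db, 508 in 16-week db/db and 919 in HFD. Il10, an anti-inflammatory cytokine, went with them at 413 CPM in WT, 301 in 8-week db/db, 23.0 in 16-week db/db and 47.6 in HFD. In these genes 16-week db/db was the lowest library. Of 8 CC chemokines 5 were lower in 16-week db/db and 6 in HFD, with medians of 0.16, -1.38 and -1.66. Summed, the chemokine list had log2 ratios of 0.16, -1.12 and -1.66 in PVMs and -0.30, -1.78 and -1.10 in other C1q macrophages. Among them was Ccl2, which draws monocytes and stood at 1588 CPM in WT, 2139.9 in 8-week db/db, 545 in 16-week db/db and 190.5 in HFD. Ccl8 stood at 2004 CPM in WT, 2651 in 8-week db/db, 1423 in 16-week db/db and 378 in HFD and was lower by 2-fold in HFD alone.

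Stress genes of tissue dissociation were also lowest in 16-week db/db and HFD. Of 20 such genes 2 were lower in 8-week db/db, 19 in 16-week db/db and 14 in HFD, with medians of -0.49, -1.80 and -1.62 and summed levels of 53752 CPM in WT, 37939.5 in 8-week db/db, 16184 in 16-week db/db and 15080.1 in HFD. T cells read 22324, 13715, 6913 and 10807 CPM, and stromal cells 26428, 20674, 9083 and 15787. Hspa1b, a heat shock protein gene with a near-identical copy, stood at 6035 CPM in WT, 4695 in 8-week db/db, 2225 in 16-week db/db and 105 in HFD. Jun, a subunit of AP-1, stood at 4436 CPM in WT, 2507 in 8-week db/db, 831 in 16-week db/db and 1138 in HFD. Egr1 went another way and was highest in HFD, at 898 CPM in WT, 405 in 8-week db/db, 322 in 16-week db/db and 1849 in HFD. The part of dissociation in the cytokine levels was not tested.

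Many lipid-associated genes that the rule did not use stood higher in PVMs of obese mice. Of 22 compared in 8-week db/db 8 were at least 2-fold higher, of 23 in 16-week db/db 11, and of 23 in HFD 11, and 1 was lower, in 16-week db/db. The median log2 ratios were 0.88, 0.94 and 0.95, and Fabp4, Fabp5, Lgals3, Atp6v0d2, Anxa2 and Vim were higher in all 3. Fabp4, a fatty acid carrier that endothelial cells also make, stood at 93.8 CPM in WT, 784 in 8-week db/db, 704 in 16-week db/db and 2532 in HFD, and in T cells at 8.51, 294, 788 and 2961 CPM. Lgals3, galectin 3, stood at 338 CPM in WT, 1096 in 8-week db/db, 1776 in 16-week db/db and 1743 in HFD, and in T cells at 89.3, 512, 3152 and 566 CPM. For both genes T cells were lowest in WT too. Atp6v0d2, a subunit of the lysosomal proton pump, stood at 16.7 CPM in WT, 52.8 in 8-week db/db, 48.3 in 16-week db/db and 178 in HFD, and in T cells at 0, 4.03, 93.1 and 38.8 CPM. Lpl stood at 220.4 CPM in WT, 569 in 8-week db/db, 419 in 16-week db/db and 1711 in HFD. Ctsk, cathepsin K, was high in 16-week db/db alone, at 12.5 CPM in WT, 61.8 in 8-week db/db, 429.6 in 16-week db/db and 28.6 in HFD. Apoe, the apolipoprotein that carries cholesterol out of macrophages, was the most abundant of the list and stood at 14591 CPM in WT, 15498 in 8-week db/db, 6867 in 16-week db/db and 14091 in HFD. The summed list, in which Apoe weighs most, was closer to WT, at 30028 CPM in WT, 34438 in 8-week db/db, 31763 in 16-week db/db and 37511 in HFD, below the 64251 to 68402 of LAMs from obese mice. The rule admitted cells rich in its own lipid-associated genes when their perivascular sum was higher still. In PVMs those genes summed to 136 CPM in WT, 242 in 8-week db/db, 541 in 16-week db/db and 673 in HFD. The list outside the rule is therefore not independent of it. What part such members and LAM RNA outside cells had was not tested.

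**Figure D5:**
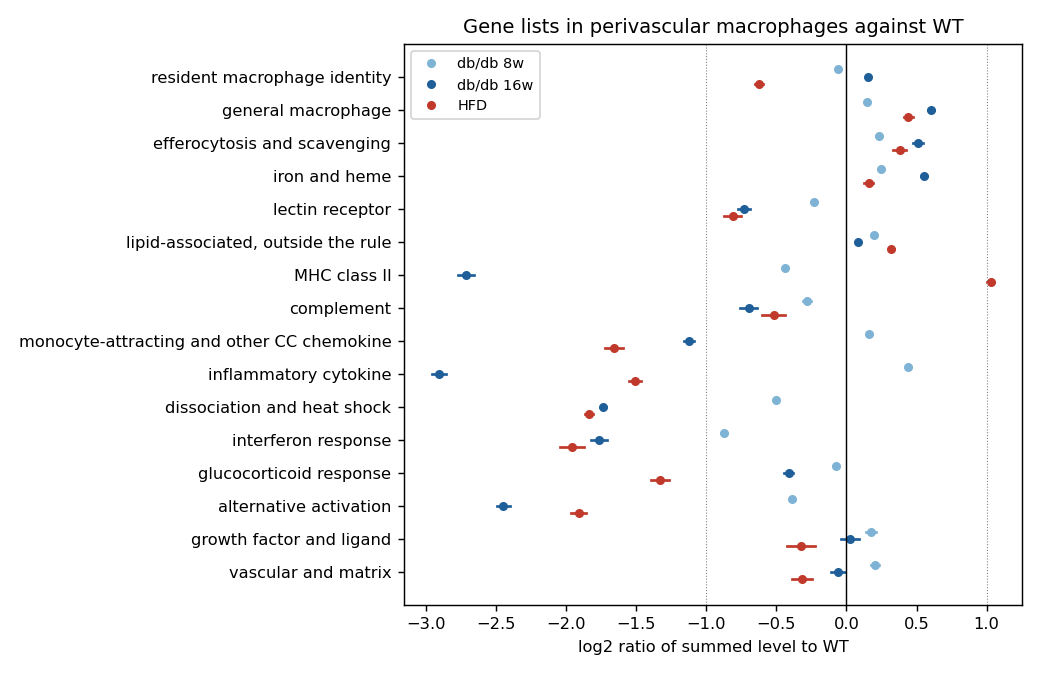
Log2 ratio to WT of the summed level of each gene list in PVMs of 8-week db/db, 16-week db/db and HFD, with exact conditional 95% intervals that cover counting error only. Interferon response genes are below 0 in all 3 libraries, MHC class II genes are at -2.71 in 16-week db/db and 1.03 in HFD, and dotted lines mark 2-fold.

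Several complement genes other than C1q stood lower. Of 13 compared in 8-week db/db 4 were at least 2-fold lower, of 14 in 16-week db/db 6, and of 14 in HFD 5, while 0, 2 and 1 were higher, with medians of -0.01, -0.79 and -0.64. C3, Cfp, Cfb and Cfd were lower in all 3 libraries. Cfp, properdin, which stabilizes the alternative pathway convertase, stood at 1059.7 CPM in WT, 447 in 8-week db/db, 297 in 16-week db/db and 373 in HFD. C3, the central component, stood at 149 CPM in WT, 35.8 in 8-week db/db, 3.17 in 16-week db/db and 19.0 in HFD, and T cells of WT also read 106 CPM of it. Cfd, adipsin, is an adipocyte product and was at 27.6 CPM in WT.

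Scavenging genes split by receptor. In 8-week db/db 0 of 16 compared genes passed 2-fold (1.33% higher and 1.35% lower over all genes). In 16-week db/db 1 of 17 was higher and 3 lower (9.98% and 8.75%), few against all genes. In HFD 7 of 18 were higher and 3 lower (7.06% and 5.31%). The medians were 0.17, 0.39 and 0.25. Summed, the list read 4552 CPM in WT, 5350 in 8-week db/db, 6484 in 16-week db/db and 5920 in HFD. In T cells it read 289, 482, 993 and 1194 CPM in the same order. Cd36, a fatty acid and oxidized lipoprotein receptor, stood at 786 CPM in WT, 1205 in 8-week db/db, 1520.1 in 16-week db/db and 1874 in HFD. Lrp1, an endocytic receptor for hemopexin and apolipoproteins, stood at 72.3 CPM in WT, 150.3 in 8-week db/db, 376 in 16-week db/db and 236 in HFD. Mertk, which engulfs dying cells, stood at 125 CPM in WT, 111 in 8-week db/db, 104 in 16-week db/db and 113 in HFD, within 2-fold of WT in all 3 libraries. Its relative Axl was highest in HFD, at 42.6 CPM in WT, 28.5 in 8-week db/db, 11.1 in 16-week db/db and 116 in HFD. Colec12, a collectin, was at 131 to 148 CPM in WT and db/db and 11.1 in HFD.

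Iron and heme genes stood furthest from WT in 16-week db/db, as did all genes by the share past 2-fold. In 8-week db/db 0 of 16 passed 2-fold (1.33% higher and 1.35% lower over all genes). In 16-week db/db 3 were higher and 3 lower of 14 (9.98% and 8.75%). In HFD 1 was higher and 2 lower of 15 (7.06% and 5.31%). The medians were 0.18, 0.46 and 0.15, lowest in HFD. Hmox1, which breaks down heme, stood at 1375 CPM in WT, 901 in 8-week db/db, 511 in 16-week db/db and 189 in HFD. Slc40a1, the iron exporter ferroportin, stood at 27.3 CPM in WT, 19.6 in 8-week db/db, 123 in 16-week db/db and 27.0 in HFD. Hemoglobin RNA was also highest in 16-week db/db PVMs, but 13 of 403 cells there held 98.8% of it. The summed iron and heme list had a log2 ratio to WT of 0.55 in 16-week db/db, and 0.56 without cells of 5 or more hemoglobin UMIs. Cp, ceruloplasmin, a ferroxidase, stood at 141 CPM in WT, 71.9 in 8-week db/db, 29.3 in 16-week db/db and 52.4 in HFD.

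Genes tied to type 2 responses and to signals for other cells varied one by one. Retnla, a secreted resistin-like protein induced by interleukin 4, was the most abundant, at 15920.5 CPM in WT, 11378 in 8-week db/db, 1650.1 in 16-week db/db and 3254 in HFD. Ccl24, an eosinophil attractant, stood at 471 CPM in WT, 349 in 8-week db/db, 193 in 16-week db/db and 127 in HFD. Klf4, a transcription factor, stood at 538 CPM in WT, 635 in 8-week db/db, 976 in 16-week db/db and 760.3 in HFD. In the list of alternative activation 2 of 11 genes were higher in 8-week db/db, 3 of 9 lower in 16-week db/db, and 2 of 9 higher and 4 lower in HFD, with medians of 0.33, -0.40 and -0.20. Among growth factors and ligands, Igf1, insulin-like growth factor 1, stood at 244 CPM in WT, 379 in 8-week db/db, 501 in 16-week db/db and 389 in HFD, with T cells at 0 to 15.5 CPM. Bmp2, a bone morphogenetic protein, stood at 251 CPM in WT, 137 in 8-week db/db, 25.4 in 16-week db/db and 19.0 in HFD. Hbegf, an EGF receptor ligand, stood at 118 CPM in WT, 230.1 in 8-week db/db, 7.93 in 16-week db/db and 82.5 in HFD. Of these 3 growth factors Igf1 alone was above WT in all 3 libraries, and Bmp2 alone was below it in all 3. Of the growth factor list 1 of 12 was higher in 8-week db/db, 1 higher and 4 lower of 10 in 16-week db/db, and 2 higher and 3 lower of 11 in HFD, with medians of 0.15, 0.13 and -0.47.

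Genes of matrix and vessels included Mmp9, a gelatinase, which stood at 151 CPM in WT, 39.3 in 8-week db/db, 3.17 in 16-week db/db and 20.6 in HFD and was lower in all 3 libraries, and Timp2, an inhibitor of such enzymes, at 1293 CPM in WT, 1468 in 8-week db/db, 1579.5 in 16-week db/db and 779 in HFD. In that list 2 of 14 genes were higher and 1 lower in 8-week db/db, 6 of 12 lower in 16-week db/db, and 4 of 15 higher and 3 lower in HFD, with medians of 0.15, -0.82 and 0.02. Metallothionein Mt1, which binds zinc and responds to glucocorticoids, stood at 826 CPM in WT, 2488 in 8-week db/db, 2126 in 16-week db/db and 475 in HFD. Txnip, an inhibitor of thioredoxin that responds to glucose, stood at 2629.8 CPM in WT, 1025 in 8-week db/db, 1283 in 16-week db/db and 597 in HFD. In the glucocorticoid list 2 of 13 were higher and 1 lower in 8-week db/db, 1 higher and 3 lower in 16-week db/db, and 6 lower in HFD, with medians of 0.11, -0.09 and -0.79. Cholesterol genes had 0 of 8 past 2-fold in 8-week db/db, 2 of 8 lower in 16-week db/db and 1 of 7 higher in HFD, with medians of 0.01, -0.64 and -0.01. Of the general macrophage genes few passed 2-fold, with 1 of 14 lower in 8-week db/db, 1 higher and 1 lower of 14 in 16-week db/db and 2 of 15 higher in HFD, and medians of 0.15, 0.31 and 0.44. Csf1r, the receptor for the macrophage growth factor CSF1, stood at 781 CPM in WT, 707 in 8-week db/db, 870.2 in 16-week db/db and 854 in HFD. The cell cycle limit of the rule was a raw count, looser in shallow cells. PVMs had a median of 5644.5 UMIs in WT and 2798 in 16-week db/db. The cell cycle genes of the rule still read 24.4 CPM in WT, 52.5 in 8-week db/db, 43.6 in 16-week db/db and 50.8 in HFD. Cell cycle genes outside the rule had 4 of 7 higher in 16-week db/db, 1 of 6 in HFD and 0 of 5 in 8-week db/db. Their medians were 0.25, 1.14 and 0.51. Among them was Stmn1, at 16.7 CPM in WT, 29.2 in 8-week db/db, 105 in 16-week db/db and 60.3 in HFD. What part depth had in these levels was not tested.

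Ranked by the smallest of the 3 ratios to WT among genes above stromal, endothelial and T cells where they are high, the leading lower genes were Rsad2, Irf7, Mmp9, Ifit2, Ifit1, Slc5a3, Cd209g, Cd209f, Cfp and Ifi209, all of them at least 2-fold lower in every library of obese mice. For the lower genes the endothelial level was that of 7 WT cells. Slc5a3, a transporter of inositol, stood at 331 CPM in WT, 92.1 in 8-week db/db, 14.3 in 16-week db/db and 113 in HFD. Ifi209, of an interferon-inducible DNA sensor family, stood at 68.3 CPM in WT, 23.9 in 8-week db/db, 3.17 in 16-week db/db and 22.2 in HFD, and in other C1q macrophages of WT at 131 CPM. The leading higher genes were closer to WT: Capg, Sh3bgrl3, Oxct1, Igf1, Arpc2, Npc1, Reep5, Gusb, Rabep1 and Pon2. Capg, an actin capping protein, stood at 126 CPM in WT, 253 in 8-week db/db, 361 in 16-week db/db and 269.8 in HFD, with log2 ratios of 0.95, 1.44 and 1.04, and was higher in LAMs of the same libraries, at 525, 784, 965 and 935 CPM. Npc1, which moves cholesterol out of lysosomes, stood at 50.6 CPM in WT, 85.8 in 8-week db/db, 79.3 in 16-week db/db and 80.9 in HFD. Gusb, the lysosomal enzyme beta-glucuronidase, stood at 75.5 CPM in WT, 113 in 8-week db/db, 148 in 16-week db/db and 173 in HFD. Oxct1, an enzyme of ketone body use, stood at 43.7 CPM in WT, 73.2 in 8-week db/db, 72.9 in 16-week db/db and 73.0 in HFD.

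Markers of other cell types differed between libraries in PVMs. The T and NK list of 10 genes summed to 6.91 CPM in WT, 8.19 in 8-week db/db, 7.93 in 16-week db/db and 22.2 in HFD, with Cd3e at 0 in 16-week db/db and HFD. B cell genes summed to 146 to 303 CPM per library, most of it Ighm, neutrophil genes to 17.5 to 103, dendritic cell genes to 46.8 to 125, adipocyte genes to 43.6 to 219 and stromal genes outside the rule to 23.8 to 273. Mural cell genes summed to 4.34 CPM in WT, 4.86 in 8-week db/db, 7.13 in 16-week db/db and 149 in HFD, and Rgs5 of pericytes made up 119 CPM of the HFD level, against 132 CPM in T cells. The endothelial list, in which Fabp4 had the most UMIs, summed to 99.3 CPM in WT, 828 in 8-week db/db, 808 in 16-week db/db and 2857 in HFD, and its Pecam1 to 2.41, 4.44, 7.93 and 47.6 CPM. Erythroid and mast genes summed to 525 CPM in WT, 1032 in 8-week db/db, 10354 in 16-week db/db and 209.5 in HFD, nearly all of it hemoglobin. The monocyte list summed to 256 CPM in WT, 134 in 8-week db/db, 42.8 in 16-week db/db and 375 in HFD, and in it Ccr2, the receptor by which monocytes leave the blood, stood at 90.3 CPM in WT, 40.3 in 8-week db/db, 29.3 in 16-week db/db and 287 in HFD. Of 4 monocyte genes compared in HFD, 2 were at least 2-fold higher than WT and 2 lower (7.06% and 5.31% over all genes). Plac8 and Ace of that list were at least 2-fold lower in all 3 libraries of obese mice. The monocyte genes therefore did not move together, and Ccr2 stands for itself alone. HFD had the highest levels of Ccr2 and of MHC class II together with the lowest of Lyve1. Whether other cells in or beside these PVMs had a part in that was not tested.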

How the data were processed

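Single-cell 3′ RNA-seq libraries of the BAT stromal vascular fraction were analysed from the deposited filtered matrices, in which the authors gave UMI counts for each gene in each barcode, as whole numbers that had not been normalized. Reads had been aligned to mm10 with Cell Ranger, version 7.1.0 by the submitters' processing notes and 6.0.0 by the header of the count files. Members and gene lists were chosen with earlier results of these data known.

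Counts of 32207 symbols found once each were read in Python 3.11.15 (numpy 2.4.6, pandas 2.3.3, scipy 1.17.1, scanpy 1.11.5, matplotlib 3.10.9). The rule was applied to each barcode, and UMIs of PVMs were summed per library and divided by all their UMIs to give CPM. Ratios were log2 of CPM with 10 CPM added, for genes of at least 20 CPM in either library, and 2-fold was the size past which a gene was counted. List sums were compared as plain ratios. Shares had exact Clopper-Pearson, sums exact Poisson and ratios of sums exact conditional binomial 95% intervals. Only the ratio intervals were checked on simulated counts, for single genes. T cells were quality-passing cells under the C1q, stromal and endothelial limits with at least 2 UMIs of 5 T cell genes. Total UMIs of PVMs were 6225446 in WT, 7201224 in 8-week db/db, 1261767 in 16-week db/db and 630035 in HFD, so that 3 UMIs, the limit a count of 0 allows, are worth most in HFD. For shares of cells with a UMI each cell was thinned to 1000 UMIs. Scrublet (in scanpy) was used for doublets. Its automatic threshold called 0, 1, 166 and 471 cells, so the highest scores were taken instead, at 0.8% per 1000 barcodes, and these cells were kept except in an alternative.

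Named were the members of the lists, the 10 highest and 10 lowest genes by the smallest of 3 ratios to WT (at least 50 CPM, above stromal, endothelial and T cells), and the 15 highest by the smallest of 4 ratios to LAMs, of which 1 is not reported here, all without mitochondrial, ribosomal protein, sex-linked and rule genes. Coordinates were taken from GRCm38, where 32235 of 32285 gene IDs were found. Alternatives covered the floor, the limits, the comparison with lipid-associated genes, thinning, doublets, the added CPM, the filter, the total, centring and means over cells. Those on 3 of the 5 markers, hemoglobin, mitochondrial counts and left-out libraries were added after seeing the data.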

Additional observations from a re-analysis of the deposited data

Results flagged for a closer look

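MHC class II genes of PVMs lay below WT in both db/db libraries and above it in HFD. The log2 ratio of their summed level to WT was -0.43 in 8-week db/db, -2.71 in 16-week db/db and 1.03 in HFD. The difference between these groups was not tested, as each is 1 library and all 3 ratios share the WT library.

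Barcodes that only the mitochondrial limit had removed, and that met the rest of the rule for PVMs, numbered 246 in 8-week db/db and 406 in HFD against 221 in WT. In HFD they outnumbered the 143 PVMs kept, and with them PVMs would be 3.15% of the cells left without that limit.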

How the results depend on the processing

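With 1 library per group there was no replicate to leave out, and an interval covers counting error only. No paired analysis was possible because each group had 1 library and no replicate numbers were shared. Of 778 values recomputed under other settings, 348 stayed within the counting interval of the reported value, or within 1.5 times a count, 430 moved beyond it, and 762 kept their direction. The 168 values for list ratios of at least 2-fold all kept their direction and 159 stayed past 2-fold. Settings in the order used are a perivascular floor of 5 or 20 per 10000 UMIs, no comparison with the lipid-associated genes, no mitochondrial limit, thinning before the rule, predicted doublets left out, stromal and endothelial limits of 10 and, chosen after seeing the data, at least 3 of the 5 markers; the cause of each shift was not tested.

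In WT PVMs made up, of quality-passing cells, 14.0% with a floor of 20, 14.3% thinned to 1000 UMIs, 16.7% without doublets, 4.09% with limits of 10 and 14.6% with at least 3 markers. In 8-week db/db PVMs made up, of quality-passing cells, 13.6% with a perivascular floor of 5, 11.5% with a floor of 20, 9.75% without a mitochondrial limit, 15.1% thinned to 1000 UMIs, 14.5% without doublets, 6.95% with limits of 10 and 11.4% with at least 3 markers. In 16-week db/db PVMs made up, of quality-passing cells, 5.57% with a floor of 20, 8.26% without the lipid comparison, 8.29% thinned to 1000 UMIs and 4.78% with at least 3 markers. In HFD PVMs made up, of quality-passing cells, 3.88% with a perivascular floor of 5, 1.30% with a floor of 20, 4.12% without the lipid comparison, 3.15% without a mitochondrial limit, 3.47% thinned to 1000 UMIs, 1.78% with limits of 10 and 1.45% with at least 3 markers. Of C1q macrophages in WT, they made up 94.2% with a perivascular floor of 5, 80.3% with a floor of 20, 84.7% with limits of 10 and 83.8% with at least 3 markers. Of C1q macrophages in 8-week db/db, they made up 66.2% with a perivascular floor of 5, 56.2% with a floor of 20, 65.3% without the lipid comparison, 57.3% with limits of 10 and 55.8% with at least 3 markers. Of C1q macrophages in 16-week db/db, they made up 21.1% with a floor of 20, 31.3% without the lipid comparison, 23.8% thinned to 1000 UMIs and 18.1% with at least 3 markers. Of C1q macrophages in HFD, they made up 14.4% with a perivascular floor of 5, 4.82% with a floor of 20, 15.3% without the lipid comparison, 12.8% thinned to 1000 UMIs and 5.36% with at least 3 markers. Identity genes in 8-week db/db had a log2 ratio of -0.12 without the lipid comparison, -0.040 without a mitochondrial limit, -0.093 thinned to 1000 UMIs, -0.029 without doublets, 0.0074 as a mean over cells, -0.029 with a total free of mitochondrial and ribosomal protein genes and -0.13 centred. Identity genes in 16-week db/db had a log2 ratio of 0.20 with a floor of 20, -0.093 without the lipid comparison, 0.18 without a mitochondrial limit, 0.0084 thinned to 1000 UMIs, 0.20 with limits of 10, 0.22 as a mean over cells, 0.25 with a total free of mitochondrial and ribosomal protein genes, -0.020 centred, 0.20 with at least 3 markers and 0.17 without cells of 5 or more hemoglobin UMIs. Identity genes in HFD had a log2 ratio of -0.76 with a perivascular floor of 5, -0.48 with a floor of 20, -0.92 without the lipid comparison, -0.68 without a mitochondrial limit, -0.88 thinned to 1000 UMIs, -0.56 as a mean over cells, -0.53 with a total free of mitochondrial and ribosomal protein genes, -0.79 centred and -0.52 with at least 3 markers. MHC class II in 8-week db/db had a log2 ratio of -0.40 with a perivascular floor of 5, -0.40 with a floor of 20, -0.49 without the lipid comparison, -0.38 without a mitochondrial limit, -0.45 thinned to 1000 UMIs, -0.47 without doublets, -0.72 with limits of 10, -0.41 as a mean over cells, -0.41 with a total free of mitochondrial and ribosomal protein genes, -0.51 centred and -0.48 with at least 3 markers. MHC class II in 16-week db/db had a log2 ratio of -2.49 with a perivascular floor of 5, -3.11 with a floor of 20, -2.61 without a mitochondrial limit, -2.79 thinned to 1000 UMIs, -3.16 with limits of 10, -2.27 as a mean over cells, -2.61 with a total free of mitochondrial and ribosomal protein genes, -2.89 centred and -3.43 with at least 3 markers. MHC class II in HFD had a log2 ratio of 1.06 with a perivascular floor of 5, 0.94 with a floor of 20, 0.46 without the lipid comparison, 0.96 without a mitochondrial limit, 1.06 without doublets, 0.65 with limits of 10, 1.20 as a mean over cells, 1.12 with a total free of mitochondrial and ribosomal protein genes, 0.86 centred and 0.87 with at least 3 markers. Interferon genes in 8-week db/db had a log2 ratio of -0.91 with a perivascular floor of 5, -0.85 with a floor of 20, -0.93 without the lipid comparison, -0.85 without a mitochondrial limit, -0.94 thinned to 1000 UMIs, -1.05 with limits of 10, -0.76 as a mean over cells, -0.85 with a total free of mitochondrial and ribosomal protein genes, -0.95 centred and -0.85 with at least 3 markers. Interferon genes in 16-week db/db had a log2 ratio of -1.62 with a floor of 20, -1.86 without the lipid comparison, -1.93 thinned to 1000 UMIs, -2.01 with limits of 10, -1.71 as a mean over cells, -1.67 with a total free of mitochondrial and ribosomal protein genes, -1.94 centred and -1.58 with at least 3 markers. Interferon genes in HFD had a log2 ratio of -2.10 without the lipid comparison, -2.12 thinned to 1000 UMIs, -2.11 with limits of 10, -1.75 as a mean over cells, -1.86 with a total free of mitochondrial and ribosomal protein genes, -2.12 centred and -1.84 with at least 3 markers.

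With 1 CPM added in place of 10, genes past 2-fold numbered 127 higher and 129 lower in 8-week db/db, 945 higher in 16-week db/db and 714 higher in HFD, 84 higher and 73 lower in all 3, and 225 higher than in LAMs in all 4 libraries. Centring gave 381 higher in 16-week db/db, 278 in HFD and 17 in all 3. Without 8-week db/db, 65 were higher and 194 lower in the remaining libraries. With doublets left out and cells thinned, 69 were higher than in LAMs. HFD rests on the fewest UMIs, and at that depth 1 UMI of a gene is 1.59 CPM.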
